A study of Mus musculus with 20 samples.

Results

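Slc15a1 encodes PepT1, the carrier that takes up dipeptides and tripeptides across the apical membrane of intestinal epithelial cells. It was 1 gene of the 12701 in the count table and was chosen by its lower counts in the proximal colon (PC) of mice fed resistant potato starch (RPS), so its levels over the diets and the genes that vary with it are given here as a description, without a test. The study sequenced RNA from the PC of 20 C57BL/6 mice, an inbred strain, with 5 libraries for each of 4 diets and 1 mouse per library. At 3 weeks of age all mice were put on the Total Western Diet (TWD), which models for rodents the nutrient intake of Americans, and ate it for 6 weeks. They then stayed on the TWD without starch (0% RPS, the control that shares the TWD with every other group) or ate the TWD with 2, 5, or 10% RPS during the last 3 weeks. A large part of this raw starch reaches the cecum and colon undigested and is fermented there by bacteria. The labels give no cage or litter, and whole tissue segments were used, so a lower number of cells of a type and less RNA per cell cannot be told apart in any value below.

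PepT1 moves a peptide together with protons, using the acid layer at the brush border that sodium-proton exchangers maintain, and peptidases on the same membrane and in the cytosol make its substrates and split what it brings in. It is known mainly from the small intestine, where it carries the bulk of absorbed protein as short peptides, and is found at low levels along the colon. Besides food peptides it takes up short bacterial peptides, among them muramyl dipeptide, formylated tripeptides, and drugs such as some beta-lactam antibiotics. Its relatives are PepT2 (Slc15a2), a carrier of higher affinity best known from kidney, and the lysosomal histidine and peptide carriers Slc15a3 and Slc15a4.

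Slc15a1 (ENSMUSG00000025557) is a protein-coding gene on the minus strand of chromosome 14, from 121697033 to 121742845 on GRCm39. GENCODE annotates 3 transcripts, of which the canonical one has 23 exons and 3121 bases, and 0 other genes overlap it. Of the 5094 windows of 50 bases, the read length, in its transcripts, 12 also occurred in the same orientation in a transcript of another gene, and 41 occurred in the opposite orientation. The 250 bases in front of the RefSeq start are shown because several transcription factors that are described for this gene were measured in the same libraries. They lie at chr14:121742667-121742916 (GRCm39) and are written 5′ to 3′ on the minus strand, with the only match of the searched motifs in capitals.
Slc15a1 promoter: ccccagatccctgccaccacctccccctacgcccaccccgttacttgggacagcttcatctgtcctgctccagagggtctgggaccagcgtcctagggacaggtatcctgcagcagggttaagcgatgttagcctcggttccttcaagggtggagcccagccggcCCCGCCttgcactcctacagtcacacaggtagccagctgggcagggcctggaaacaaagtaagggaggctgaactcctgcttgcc
The capitals are a GC box of the Sp1 family (GGCGGG, here on the opposite strand), whose match begins 85 bases before the start. Both strands were searched, and 32.5% of the 32817 RefSeq promoters in the table used hold this motif in their own window. The overlapping GC box form GGGCGG (32.7% of promoters), the Cdx motif TTTATG (10.8%), the Hnf4 motif CAAAGTCCA (0.384%), and the TATA box TATAAA (12.4%) had 0 matches in this window. These are descriptions of letters and not of bound sites. An annotated Slc15a1 transcript starts at 121742845, upstream of the RefSeq start. The window up to that base, the GC box included, therefore lies inside the gene as annotated.

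The libraries held 20581013 to 35083751 counts, and the floor of 3 counts corresponded to 0.0855 to 0.146 CPM (counts scaled by library total). As defining genes of the labelled tissue, the surface colonocyte genes Car1 and Lypd8 averaged 321199 and 151720 normalised counts (counts divided by the size factor of the library). All 8 epithelial markers were above 0 in every library. A single library, 0% RPS replicate 2, stood apart from the other 19 in genes of position along the gut. Its normalised count was 2422 for Hoxa9, against 195 to 678 in the others, and 652 for Osr2, against 4728 to 6904. It also had the highest sums of smooth muscle markers (294665, against 123671 to 260429) and of leukocyte markers (12928, against 2157 to 6057). This library had the highest Slc15a1 count as well, so that values of Slc15a1 are also given without it.

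Slc15a1 was about 3-fold lower in the PC of mice fed 5 or 10% RPS than in mice fed the TWD alone, and most of that difference was already seen with 2% RPS. At 0% RPS the normalised counts in replicates 1 to 5 were 197, 553, 165, 332, and 374. With 2% RPS they were 194, 145, 81.7, 141, and 162. The first diet thus held 3 libraries with high counts and 2 whose counts were close to the highest of the 2% RPS group. With 5% RPS the counts were 70.1, 114, 152, 115, and 85.0. With 10% RPS they were 109.5, 106, 53.5, 167, and 64.8. Every starch-fed mouse was below the 0% RPS mean. All 5 libraries at 5% RPS were also below the lowest library at 0% RPS, whereas at 2% and at 10% RPS 4 of 5 were, and replicate 1 at 2% RPS and replicate 4 at 10% RPS fell inside the control range. The underlying raw counts ran from 46 (95% Poisson interval 33.7 to 61.4, counting error only) in 10% RPS replicate 3 to 531 (487 to 578) in 0% RPS replicate 2, or 1.90 to 21.0 CPM.

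**Figure D1:**
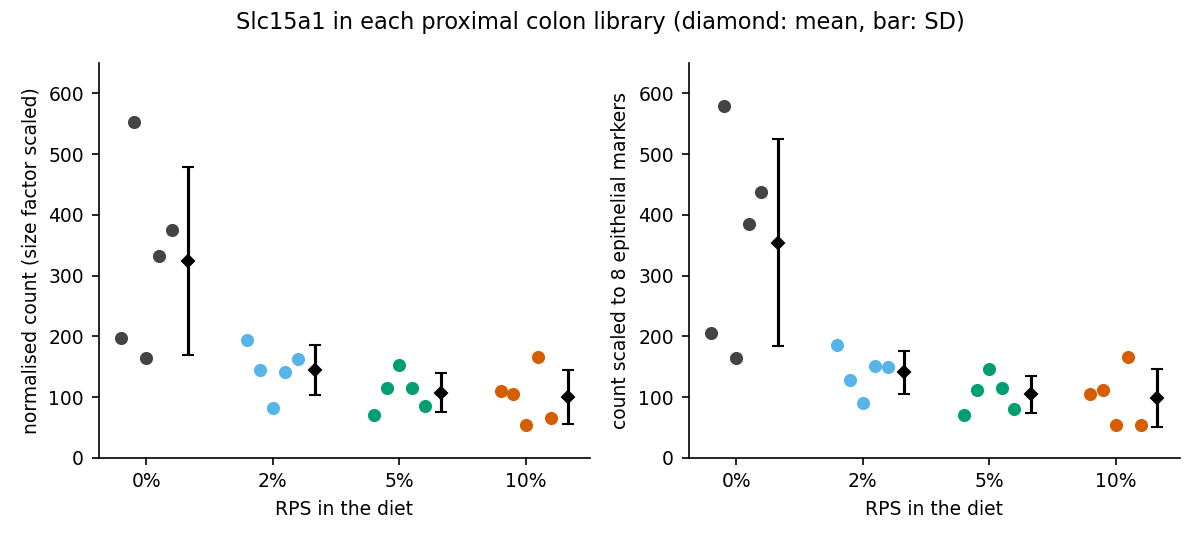
Slc15a1 in each of the 20 libraries by diet, as counts scaled by size factors (left) and scaled by 8 epithelial markers (right), with points for mice, diamonds for means, and bars for SD (n = 5). On both scales the 3 highest controls stand above all starch-fed mice, and the other 2 controls lie near the top of the 2% RPS group.

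The group means were 324 ± 155 normalised counts (SD, n = 5) at 0% RPS, 145 ± 40.9 at 2%, 107 ± 31.6 at 5%, and 100.004 ± 44.6 at 10%. Control mice varied most, with a coefficient of variation of 47.9%, followed by 44.6% at 10% RPS, 29.5% at 5%, and 28.3% at 2%. The DESeq2 log2 fold change against 0% RPS was −1.16 ± 0.33 (SE) at 2% RPS, a level 2.24-fold lower. It was −1.60 ± 0.33 at 5% RPS (3.02-fold lower) and −1.69 ± 0.33 at 10% RPS (3.24-fold lower). The order of the means followed the starch content, but the steps among the starch diets were small against their error. From 2 to 5% RPS the log2 difference was −0.43 (95% interval −1.08 to 0.21), from 2 to 10% it was −0.53 (−1.18 to 0.12), and from 5 to 10% it was −0.10 (−0.75 to 0.55). A straight line over all diets had a slope of −0.15 ± 0.036 (SE) on the log2 scale per percent RPS. Because these values chose the gene, no p is attached to them. For scale, the log2 fold change was lower than that of Slc15a1 in 61 of the other 12560 genes tested at 2% RPS, in 36 of 12320 at 5% RPS, and in 23 of 12320 at 10% RPS.

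The lower level was as large when counts were scaled to the epithelium rather than to all genes. Divided by the geometric mean of 8 epithelial markers, Slc15a1 averaged 354 ± 171 at 0% RPS, 141 ± 35.2 at 2%, 105 ± 30.3 at 5%, and 98.4 ± 47.2 at 10%. The log2 fold changes on this scale were −1.33, −1.76, and −1.85. The summed epithelial markers ranged from 289612 to 349148 normalised counts at 0% RPS, from 299000 to 406410 at 2%, from 337607 to 360455 at 5%, and from 306366 to 401987 at 10%. All 8 correlated negatively with Slc15a1 over the 20 libraries (median r = −0.47), but within diets, after the diet means were removed, only 5 of 8 did (median r = −0.09). The 8 smooth muscle markers, whose sums were 135366 to 294665 at 0% RPS and 140797 to 233737 at 10%, all correlated positively (median r = 0.38, within diets 0.27). With a smooth muscle score as a covariate the log2 fold change of Slc15a1 was −1.08 at 2% RPS, −1.42 at 5%, and −1.54 at 10%. Leukocyte markers, of which 4 of 8 were in the table, had sums of 2748 to 12928 at 0% and 3465 to 6057 at 10% RPS, and neuron and glia markers (8 of 8) had sums of 3774 to 5016 and 3054 to 4458. The part of leukocytes and neurons in the difference was not tested.

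Leaving out a single mouse changed the size of the Slc15a1 difference but not its sign. Such fits reuse the values that chose the gene, so they describe the difference and do not test it. When each library was left out in turn, the log2 fold change stayed between −1.33 and −0.88 at 2% RPS, between −1.76 and −1.32 at 5%, and between −1.96 and −1.41 at 10%. The smallest difference at each dose was the one without 0% RPS replicate 2, the library that stood apart. The labels number 3 libraries outside the run of the other 17, namely 2% RPS replicate 5 and 10% RPS replicates 4 and 5. The numbering was thus not balanced over the diets, and without these 3 only replicates 1, 2, and 3 remained at 10% RPS. The values without them were −1.21, −1.60, and −1.85.

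**Figure D2:**
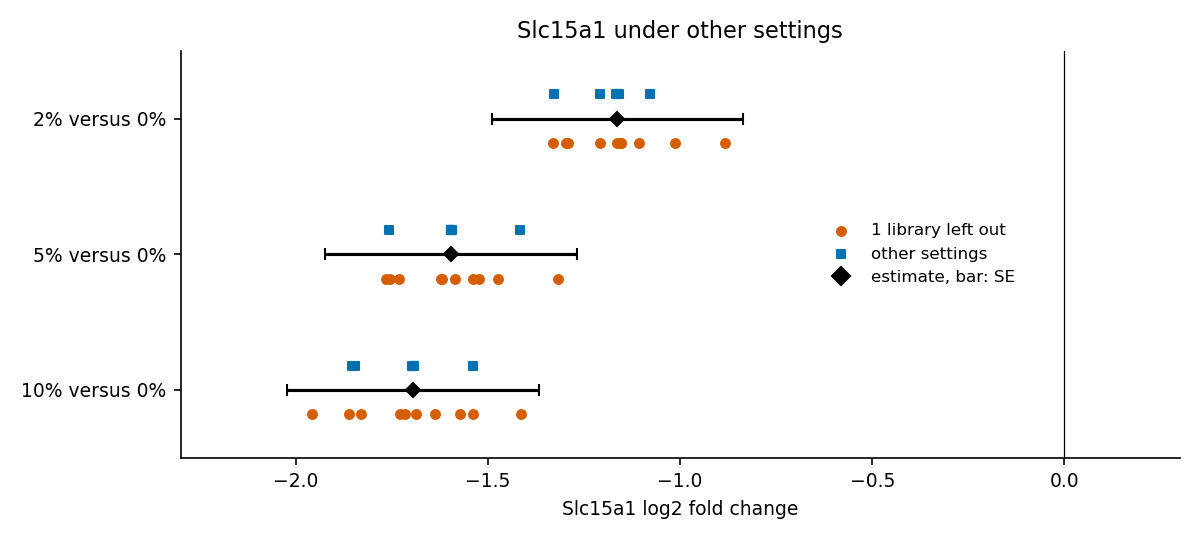
Log2 fold change of Slc15a1 against 0% RPS for each starch diet: the DESeq2 estimate with its SE (diamonds), estimates with 1 library left out (orange points), and estimates under other settings (blue squares). Every point lies below 0, and the points nearest to 0 among those with 1 library left out are −0.88, −1.32, and −1.41.

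The other Slc15 genes in the table were not called at any dose or in the trend. PepT2 (Slc15a2) was spread widely within each diet, with normalised counts of 16.5, 998, 445, 19.1, and 559.8 at 0% RPS. At 10% RPS the counts were 882, 696, 365, 367, and 508, inside the control range. Libraries with very low Slc15a2, under 20 normalised counts, were the control replicates 1 and 4 and replicate 3 at 5% RPS (19.9). Its log2 fold change at 10% RPS was 0.47 ± 0.87 (DESeq2 adjusted p = 0.805). Slc15a4, the lysosomal carrier that serves endosomal pattern recognition receptors, averaged 675 ± 77.0 normalised counts at 0% RPS and 684 ± 133 at 10% RPS (log2 0.02 ± 0.13, DESeq2 adjusted p = 0.950). Over the 20 libraries the Pearson r with Slc15a1 was −0.24 for Slc15a2 and 0.01 for Slc15a4. Slc15a3 and Slc15a5 were not analysed here. Per kilobase of the canonical transcript, the mean level of Slc15a1 was 54.2 normalised counts, above 12.2% of 12682 genes, compared with 109 for Slc15a2 and 82.4 for Slc15a4.

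**Figure D3:**
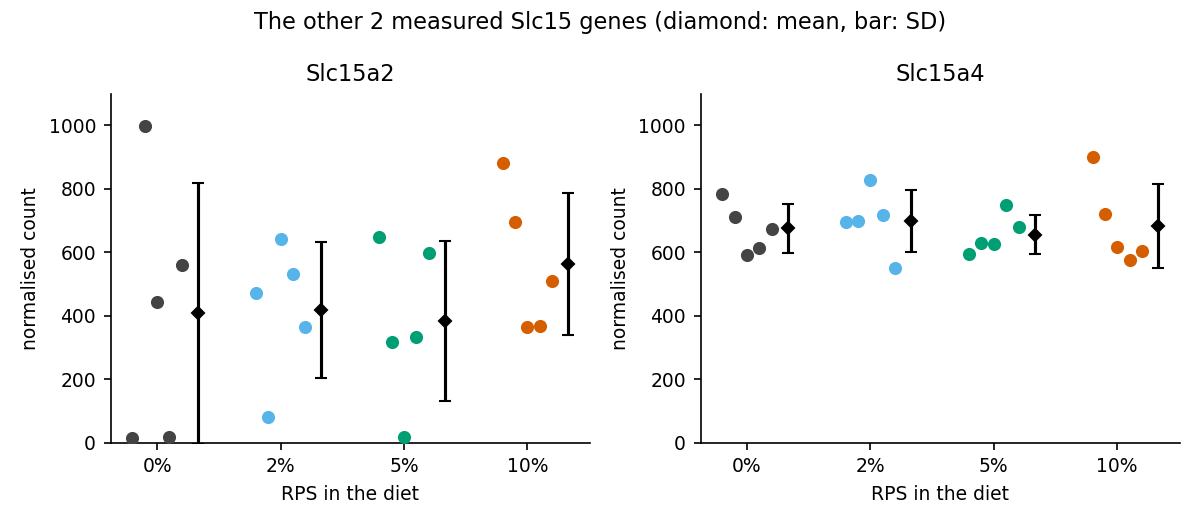
Slc15a2 and Slc15a4 in each of the 20 libraries, as normalised counts by diet, with points for mice, diamonds for means, and bars for SD (n = 5). Slc15a2 ranges from 16.5 to 998 within the control group alone, while Slc15a4 averages 675 at 0% RPS and 684 at 10% RPS.

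Genes that make, take up, or use the products of protein digestion gave 0 calls at the 3 doses. A gene was called when its DESeq2 adjusted p was at most 0.05 and its fold at least 1.5, and for the linear trend over percent RPS on the adjusted p alone. Among all genes, 0.0239% of those tested were called higher and 0% lower at 2% RPS, 0.333% higher and 0.106% lower at 5%, and 0.536% higher and 0.381% lower at 10%. In the trend 2.45% were called higher and 1.95% lower. Slc15a1 is itself among the genes called lower at 5% and 10% RPS, which is what it was selected on. Of 49 other genes of peptide and amino acid handling (2 Slc15 carriers, 17 peptidases, 20 amino acid carriers, and 10 genes of proton and sodium exchange), 0 were called at 2, 5, or 10% RPS by DESeq2 or by edgeR, and 12 had an unadjusted p under 0.05 at 10% RPS in each tool. Over all genes, the share with an unadjusted DESeq2 p under 0.05 was 8.70% at 2% RPS, 16.6% at 5%, and 18.8% at 10% (edgeR 8.09%, 15.9%, and 18.03%), and counts at an unadjusted p here and in the other lists stand beside that background. The median of the 49 log2 fold changes at 10% RPS was 0.03 and the highest 0.47 (Slc15a2), and over all genes tested the median was −4.8e-05. None of the 49 was as low as Slc15a1 at any dose.

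Among the peptidases, Mep1a, the alpha subunit of the brush border metalloprotease meprin, was the most abundant, with 17082 ± 2650.1 normalised counts at 0% RPS and 15404 ± 2679 at 10% (log2 −0.15 ± 0.13, DESeq2 adjusted p = 0.541). Aminopeptidase N (Anpep) averaged 306 ± 46.6 and 265 ± 41.3 (log2 −0.20 ± 0.13, DESeq2 adjusted p = 0.388), and of the peptidases it had the highest correlation with Slc15a1 (r = 0.57, within diets 0.56). Npepps, a cytosolic aminopeptidase, was the only one of the 49 called in the trend, where it rose by 0.014 ± 0.0040 log2 units per percent RPS (DESeq2 adjusted p = 0.0233, edgeR 0.106). That call was lost without 0% RPS replicate 5 (adjusted p = 0.0706) and without 10% RPS replicates 1, 2, or 3 (0.0584, 0.0652, and 0.0634). Peptidases as a list had a median r with Slc15a1 of −0.02, with 7 of 17 positive.

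Among the amino acid carriers, Slc6a14, a broad carrier of neutral and cationic amino acids, averaged 14989 ± 4253 normalised counts at 0% RPS and 19905 ± 4202 at 10% (log2 0.41 ± 0.17, DESeq2 adjusted p = 0.137). Their median log2 fold change at 10% RPS was 0.08, with 8 of 20 below 0. Slc9a3, the apical sodium-proton exchanger that feeds the proton gradient of PepT1, averaged 9829 ± 2496 and 12093 ± 3172 (log2 0.30 ± 0.27, DESeq2 adjusted p = 0.562). Per kilobase, Mep1a stood at 5466 normalised counts, Slc6a14 at 4761, and Slc9a3 at 4427, compared with 54.2 for Slc15a1 on the same scale.

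**Figure D4:**
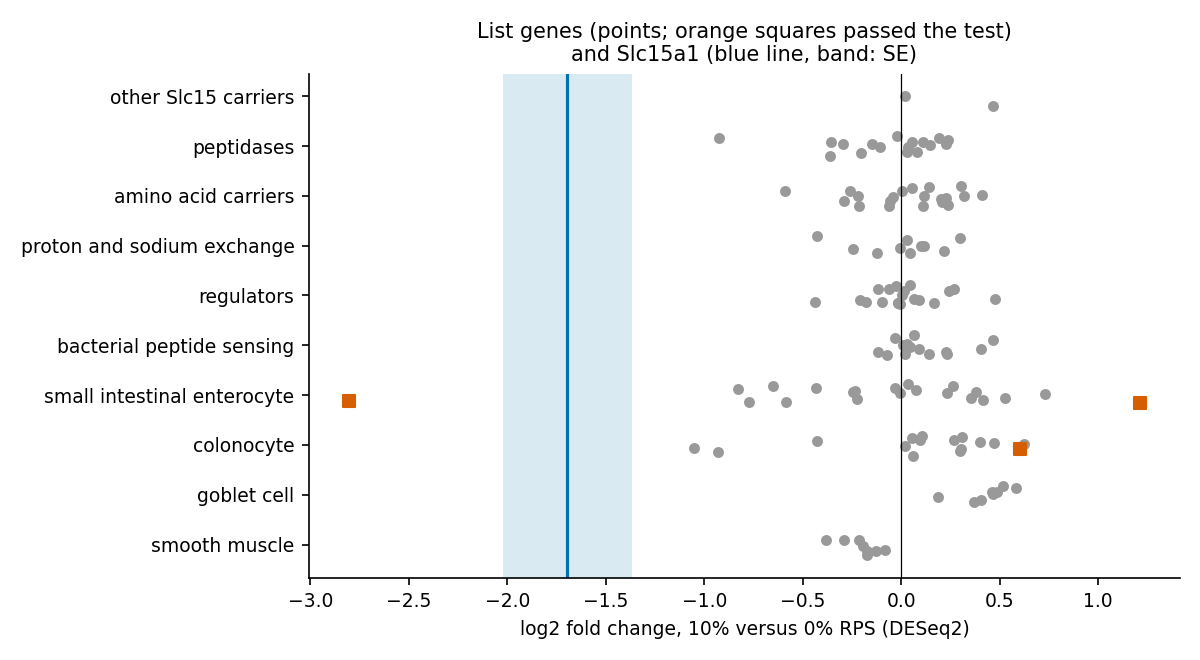
DESeq2 log2 fold change at 10% versus 0% RPS for the tested genes of 10 lists (points, with orange squares for called genes, with an adjusted p of at most 0.05 and a fold of at least 1.5), with Slc15a1 as a blue line at −1.69 and its SE as a band. None of the genes of peptide and amino acid handling lies as low as the band, and the gene to the left of the band is Apoa1 at −2.81.

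Genes that sense bacterial peptides and muropeptides or carry them to the cytosol were also not called. Of the 14 genes of this list that were in the table, among them the carriers Slc15a2 and Slc15a4 already counted above, 0 were called at any dose or in the trend, 2 had an unadjusted p under 0.05 at 10% RPS, and the median log2 fold change there was 0.06. Nod1, a cytosolic receptor of muropeptides that need a carrier to reach it, averaged 650.2 ± 132 normalised counts at 0% RPS and 599.7 ± 29.6 at 10% (log2 −0.12 ± 0.11, DESeq2 adjusted p = 0.586). Its kinase partner Ripk2 averaged 343 ± 66.6 and 403 ± 57.0 (log2 0.23 ± 0.16, DESeq2 adjusted p = 0.433). Pglyrp1, a secreted peptidoglycan-binding protein, had an adjusted p of 0.0121 in DESeq2 but a log2 fold change of 0.40 ± 0.11, below the fold asked for. Nod2 was not analysed here.

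Transcription factors of the intestinal epithelium gave 0 calls of 19 at every dose and in the trend, with a median log2 fold change of −0.0051 at 10% RPS. Cdx2, which is described as a driver of intestinal PepT1, averaged 8085 ± 508 normalised counts at 0% RPS and 8611 ± 1123 at 10% (log2 0.09 ± 0.09, DESeq2 adjusted p = 0.609). Sp1, whose family binds GC boxes such as the one shown above, averaged 2409 ± 123 and 2420.3 ± 202 (log2 0.01 ± 0.07, DESeq2 adjusted p = 0.970). Hnf4a averaged 21557 ± 644 and 21170 ± 1939 (log2 −0.03 ± 0.08, DESeq2 adjusted p = 0.883). The homeobox factor Isx, a gut repressor of carotenoid uptake, had the lowest r with Slc15a1 of the 19. In control replicates 1 to 5 it had 5951, 3046, 4533, 4704, and 4135 normalised counts, so that the library with the most Slc15a1 had the least Isx. With 10% RPS it had 6238, 6264, 6821, 4918, and 6848, and here the mouse with the most Slc15a1, replicate 4, again had the least. Its r with Slc15a1 was −0.84 over 20 libraries, −0.68 within diets, and −0.77 without 0% RPS replicate 2. Without that library other factors of the list also had a larger r, namely Ppara (0.70, from −0.0038 over 20 libraries), Vdr (0.66, from −0.01), Nfe2l2 (0.64, from 0.34), and Klf4 (−0.62, from −0.22). The log2 fold change of Isx at 10% RPS was 0.48 ± 0.14 (DESeq2 adjusted p = 0.0212, edgeR 0.0842), also below the fold asked for.

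Over all 16 lists, which held 165 measured genes besides Slc15a1, 0 genes were called at 2% RPS (19 with an unadjusted p under 0.05 in DESeq2 and 17 in edgeR, which also called 0) and 0 at 5% RPS (35 and 33, edgeR 0). At 10% RPS 2 were called higher and 3 lower, and edgeR called 2. Of 22 genes best known from absorptive cells of the small intestine, where PepT1 itself is best known, 1 was called higher and 1 lower, with a median log2 fold change of −0.02. Mogat2, an enzyme of fat absorption that rebuilds diacylglycerol, rose. Its normalised counts were 208, 84.3, 207, 112, and 119 at 0% RPS and 449.7, 240.5, 444, 195, and 368 at 10% RPS. Replicates 1, 3, and 5 of the starch-fed mice were above every control, by a wide margin, and replicates 2 and 4 were close to the highest controls. The log2 fold change was 1.21 ± 0.26 (DESeq2 adjusted p = 0.000742, edgeR 0.0314), and it kept its call without any one library. Mogat2 ran opposite to Slc15a1 over the 20 libraries (r = −0.81, within diets −0.73, without 0% RPS replicate 2 −0.74).

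Apoa1, a lipoprotein of absorptive cells, fell from 66.0 ± 65.0 to 9.39 ± 6.34 normalised counts and was called in DESeq2 (log2 −2.81 ± 0.79, adjusted p = 0.0189). In edgeR the log2 fold change was −2.76, but it was not called (adjusted p = 0.104). The DESeq2 call was lost without 0% RPS replicate 3 (log2 −2.26, adjusted p = 0.0717) and without 10% RPS replicate 3 (−2.76, 0.0665). No adjusted p was available for Apoa1 without 0% RPS replicate 1 or without 10% RPS replicate 1. Its r with Slc15a1 was 0.29 over 20 libraries and −0.24 within diets. Sis, sucrase-isomaltase of the brush border, averaged 827 ± 618 and 465 ± 274 (DESeq2 adjusted p = 0.425), and Slc5a1, the glucose carrier, averaged 4367 ± 1109 and 4609 ± 788 (DESeq2 adjusted p = 0.825). In the trend Mogat2 and Ces1f, a carboxylesterase, rose and Apoa1 fell, but edgeR did not call the Apoa1 trend (adjusted p = 0.0699).

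Of 17 surface colonocyte genes, 1 was called at 10% RPS, and their median log2 fold change was 0.11. Aqp8 of this list had the lowest log2 fold change of the 165 list genes at 2% RPS (−2.13) and at 5% RPS (−2.52). Both values were lower than those of Slc15a1, but Aqp8 was not called at these doses, and its r with Slc15a1 was 0.18 (within diets 0.05). Ceacam1, an adhesion molecule of the apical surface, rose from 59155 ± 6832 to 89772 ± 9680.1 normalised counts (log2 0.60 ± 0.13, DESeq2 adjusted p = 0.000944). Its fold dropped under 1.5 without 0% RPS replicates 1, 2, or 5 (log2 0.58, 0.58, and 0.56) or 10% RPS replicates 4 or 5 (0.57 and 0.56). Its r with Slc15a1 was −0.60, and within diets −0.09. Goblet cell genes had 0 of 8 called at 10% RPS, all with a log2 fold change above 0 (median 0.46, 5 with an unadjusted p under 0.05), and 1 of 8, Agr2, was called higher in the trend. Smooth muscle genes had 0 of 8 called and a median of −0.18. Leukocyte, Paneth, and pancreatic acinar genes (4, 4, and 1 in the table) had 0 called at any dose or in the trend. In the trend Car4, Epcam, and Ceacam1 also rose, and Hoxa7 and Hoxa9 fell. The trend calls of Car4, Agr2, Hoxa9, Hoxa7, and Epcam were each lost without 2 to 11 of the 20 libraries taken singly, and for all 5 without 10% RPS replicate 3 (adjusted p = 0.0921, 0.101, 0.0734, 0.0886, and 0.0752). These 5 were also lost in edgeR (adjusted p = 0.0872, 0.0969, 0.0712, 0.109, and 0.122, in the same order) and without the 3 libraries numbered apart (DESeq2 adjusted p = 0.131, 0.312, 0.101, 0.167, and 0.141). For the Hoxa9 trend no adjusted p was available without 0% RPS replicate 4.

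Genes that mark position along the gut moved with Slc15a1 in part. Hoxa9, a homeobox gene of posterior identity, was called lower at 10% RPS, from 763 ± 934 to 215 ± 18.7 normalised counts (log2 −1.83 ± 0.52, DESeq2 adjusted p = 0.0186, edgeR 0.0740). Its control counts were 264, 2422, 257, 524, and 346, so that the difference rested mostly on replicate 2, without which the log2 fold change was −0.70 (adjusted p = 0.0921). The call was also lost without 10% RPS replicate 3 (−1.81, 0.0665) or 5 (−1.81, 0.0639). No adjusted p was available for Hoxa9 without 0% RPS replicate 4. Hoxa7 was likewise called (log2 −1.02 ± 0.30, DESeq2 adjusted p = 0.0251, edgeR 0.101), with −0.44 (adjusted p = 0.125) without 0% RPS replicate 2, and its call was also lost without 0% RPS replicate 4 (0.0509) and 10% RPS replicates 3 (0.0761) or 5 (0.0856). The r with Slc15a1 was 0.73 for Hoxa9 and 0.70 for Hoxa7 over 20 libraries, 0.57 and 0.56 within diets, and 0.59 and 0.53 without 0% RPS replicate 2. Hoxa10, the neighbouring gene of the cluster, had an r of 0.67 (0.47 without that library). For others of the list the r also moved without that library, from −0.55 to −0.11 for Osr2 and from −0.38 to 0.52, a change of sign, for Hoxd10. Of the 8 position genes in the table, 4 correlated positively and 4 negatively. Without 0% RPS replicate 2 Slc15a1 was still lower by the log2 values given above (−0.88, −1.32, and −1.41), and the part of sampling position in the remainder was not tested.

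The genes whose pattern over the 20 libraries was most like that of Slc15a1 were ranked by Pearson r of log2(normalised count + 1) among the 12250 genes averaging 20 normalised counts or more. In all, 117 genes had an r of 0.7 or more and 182 an r of −0.7 or less, while 5% of genes had an r above 0.55 and 5% an r below −0.58. The points share their library, depth, and diet, so that any gene that differs between 0% RPS and the starch diets correlates with Slc15a1, and with the diet means removed the counts were 15 and 42. With only the 15 starch-fed mice they were 71 and 64.

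Highest with Slc15a1 stood Mocs1, an enzyme of molybdenum cofactor synthesis (r = 0.85, Spearman rho 0.77, within diets 0.65). Its normalised counts were 585, 646, 558, 652, and 622 at 0% RPS and 483, 557, 509, 496, and 483 at 5% RPS, and the pair of control mice with low Slc15a1, replicates 1 and 3, had the lowest Mocs1 of their group. The span was narrow, with a log2 fold change of −0.24 at 10% RPS against −1.69 for Slc15a1. Next came Tacr2, the neurokinin receptor of gut smooth muscle (r = 0.84, log2 −0.86), Sun2 of the nuclear envelope (0.84, −0.47), Scaper (0.83, −0.30), and Pdgfrb, the growth factor receptor of fibroblasts and pericytes (0.82, −0.43). Rcbtb2, Gpr137b, the mitochondrial methionine sulfoxide reductase Msrb2, the adhesion molecule Sdk1, and the ubiquitin ligase subunit Gid4 completed the 10, with r from 0.80 to 0.82. Within diets the r of these 10 lay between 0.48 and 0.74, and without 0% RPS replicate 2 between 0.72 and 0.83. Among the starch-fed mice alone their r lay between 0.38 (Gid4) and 0.73 (Rcbtb2).

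Opposite to Slc15a1, the strongest correlation was that of Hdac1, a histone deacetylase (r = −0.91, Spearman rho −0.86, within diets −0.81, among the 15 starch-fed mice −0.81). In control mice it had 5841, 4452, 5626, 4735, and 4176 normalised counts, so that replicates 1 and 3, with the least Slc15a1, had the most Hdac1. At 10% RPS it had 6241, 5985, 8243, 5713, and 6977. There replicates 3 and 5, the pair with the least Slc15a1 of all 20 libraries, had the 2 highest counts of Hdac1, and replicate 4, with the most Slc15a1, had the lowest. Its log2 fold change at 10% RPS was 0.42, a small range beside that of Slc15a1.

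The other genes of lowest r included Fam3c, a secreted protein (r = −0.87, log2 at 10% RPS 0.72), Rmdn3, a mitochondrial tether (−0.87, 0.27), Prap1, a secreted protein of gut epithelium (−0.85, 1.05), the endoplasmic reticulum peptidase Ermp1 (−0.85, 0.39), Gm33424 (−0.84, 1.85), Isx (−0.84, 0.48), the fucosidase Fuca2 (−0.84, 0.35), and Tsg101 of the endosomal sorting machinery (−0.83, 0.19). Gm33424 had the largest span, from 46.9 ± 16.5 normalised counts at 0% RPS to 169.6 ± 41.7 at 10%. Within diets the r of the 10 lowest lay between −0.81 and −0.55, with Ermp1 and Hdac1 lowest. Among the starch-fed mice alone their r lay between −0.81 and −0.45. Only 2 of the 10 highest and 2 of the 10 lowest were also among the 10 most extreme genes once the diet means were removed. Without 0% RPS replicate 2 these numbers were 2 and 1, and among the starch-fed mice alone they were 0 and 2. The ranking thus depended on which libraries were used.

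**Figure D5:**
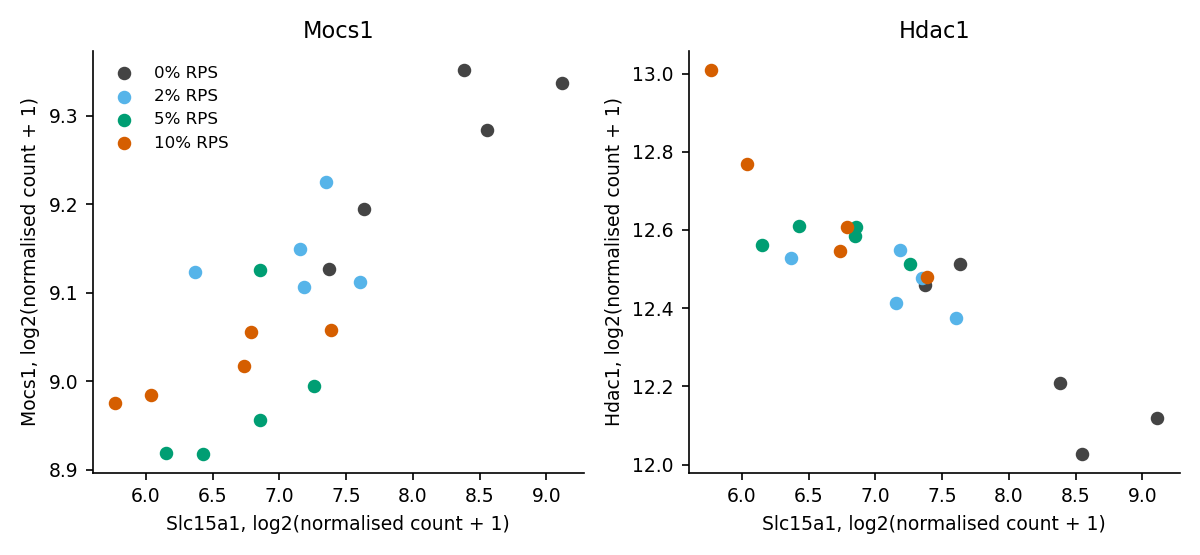
Mocs1 (left) and Hdac1 (right) against Slc15a1 in each of the 20 libraries, all as log2(normalised count + 1), with points coloured by diet. Mocs1 goes up with Slc15a1 (r = 0.85) and Hdac1 goes down (r = −0.91), also among points of 1 colour for Hdac1 (within diets r = −0.81).

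The genes next to Slc15a1 on chromosome 14 gave no calls. Of the nearest 3 genes in the table on each side, 0 were called at any dose or in the trend. Dock9, a guanine nucleotide exchange factor that begins 36.6 kb away, had a log2 fold change of −0.14 ± 0.08 at 10% RPS (DESeq2 adjusted p = 0.296) and an r of 0.50 (within diets 0.22). Stk24, a kinase 79.6 kb away on the other side, had 0.08 ± 0.07 (DESeq2 adjusted p = 0.530) and an r of −0.28. Farp1 (DESeq2 adjusted p = 0.484), Ipo5 (0.841), Ubac2 (0.677), and A330035P11Rik (0.174) lay 172 to 593 kb away.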

How the data were processed

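RNA was extracted from the PC and sequenced as stranded mRNA libraries. The authors aligned and counted reads in CLC Genomics Workbench on GRCm39 (build per the submitters' processing notes) and deposited raw counts per Ensembl gene, with replicates not pooled. The annotation, the use of strand, and the handling of reads with several matches are not given in the sources used here. GENCODE release M39 gave symbols and positions for 12682 of 12701 identifiers.

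All 20 libraries entered 1 DESeq2 fit (version 1.42.0, R version 4.3.3) with diet as the only term, and a second with percent RPS as a number. DESeq2 was the main test because the study used it, and edgeR (version 4.0.16, 12366 genes) was the alternative. Wald p-values were adjusted by Benjamini-Hochberg over all genes. Groups came from the treatment in the labels, and replicate numbers, given here by order inside each diet, pair nothing. The p-values set a diet difference or slope against the spread between these mice. Variation between cages or litters, which the labels do not give, could not be separated.

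Slc15a1 and the gene lists were chosen with earlier results of these data known. Named were the Slc15 genes, list genes called at 5% or 10% RPS or in the trend and otherwise up to 4 of highest mean per list, the 10 highest and 10 lowest r, and 3 neighbours on each side. Some genes under this rule are not reported here. Anpep, Mep1a, Rnpep, Slc5a1, Sis, Ripk2, Nod1, Pglyrp1, Sp1, Cdx2, Isx, Ppara, Vdr, Nfe2l2, Klf4, Hoxa10, Hoxd10, Osr2, and Aqp8, where outside this rule, were chosen after their values were seen. In data simulated for 10% versus 0% RPS over 12701 genes, 96 of 100 genes changed by a log2 of 1 and 97 of 100 changed by 2 were recovered. Total counts were 20581013 to 35083751, with a median of 26354926. Python (version 3.11.15) and matplotlib (version 3.10.9) made the other tables and plots.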

Additional observations from a re-analysis of the deposited data

Results flagged for a closer look

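In groups of 5 libraries, a library was marked when its gap to the nearest other library exceeded 0.71 of the range of its group, which chance alone gives in about 5% of groups. Of 276 groups of named genes, 19 (6.88%) were marked, and Slc15a1 was in none of them.

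Of these, 8 were 0% RPS replicate 2, which was highest of its group in each. Its normalised counts were 2422 for Hoxa9 (others 257 to 524), 1619 for Hoxa7 (380.5 to 619.6), 509 for Tacr2 (231 to 290.3), 46939.5 for Des, 11831 for Jchain, 169 for Cd68, 1638 for Ang4, and 2303 for Cela1.

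In 5% RPS replicate 2, 4 genes were highest of their group, with 20367 normalised counts for Slc6a14, 35578 for Atp1b1, 21245 for Slc9a3, and 10194 for Erbin. Slc15a1 was at 114 in this library, within its group. Slc6a14 was also high in 10% RPS replicate 4 (27252), the library with the most Slc15a1 of its group.

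The other marked values were Npepps in 5% RPS replicate 1 (3326, lowest), Ces1f in 0% RPS replicate 5 (2573, highest) and 10% RPS replicate 2 (2382, lowest), Rmdn3 in 10% RPS replicate 3 (1940.2, highest), Isx in 2% RPS replicate 3 (7291, highest), and Slc38a1 in 0% RPS replicate 4 (3136, highest). The marked Rmdn3 and Isx values belong to the libraries with the least Slc15a1 of their group, 53.5 and 81.7 normalised counts.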

How the results depend on the processing

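The log2 fold change of Slc15a1 was below 0 in all 51 alternatives run and moved by less than the pooled SD between mice (0.57 log2 units) in each. With 1 library left out it was −1.33 to −0.88 at 2% RPS, −1.76 to −1.32 at 5%, and −1.96 to −1.41 at 10%, and under the other settings −1.33 to −1.08, −1.76 to −1.42, and −1.85 to −1.54. The pooled SD is wider than the SE of these estimates (0.33), so a move smaller than it is a loose standard. All alternatives reuse libraries by which the gene was chosen, so they describe dependence on settings and do not test the fall. Counts of called list genes depended on the setting. At 5% RPS there were 0, with 1 without the 3 libraries numbered apart, 3 with no fold threshold, and 0 to 3 with 1 library left out. At 10% RPS there were 5, with 2 in edgeR, 1 without the 3 libraries, 14 with no fold threshold, and 2 to 12 with 1 library left out, the 12 without 0% RPS replicate 2. In the trend there were 11, with 3 in edgeR, 5 without the 3 libraries, and 5 to 22 with 1 library left out, the 22 again without 0% RPS replicate 2. The share of all genes called under these other settings, such as no fold threshold, is not given here. These list counts therefore cannot be set against a background. Genes with an r to Slc15a1 of 0.7 or more numbered 117, against 43 by Spearman rho, 15 with diet means removed, 218 without 0% RPS replicate 2, and 71 in the 15 libraries of the starch diets, a setting chosen after seeing the data. Those with −0.7 or less numbered 182, against 70 (Spearman), 42 (diet means removed), 270 (without 0% RPS replicate 2), and 64 (starch diets). Apart from the change of setting that defines each, the cause of these shifts was not tested. TMM factors, the low count filter, and no independent filtering kept each of the list counts within 1.5 times. No paired analysis was possible because no replicate number in the labels links mice of different diets. With raw counts of 46 to 531, counting error on Slc15a1 was smaller than the spread between mice.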
